A study of Mus musculus with 14 samples.

Results

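RNA recovered from mouse testis with an antibody against MVH was set against RNA of sorted round spermatids, gene by gene. MVH, encoded by Ddx4, is a DEAD-box RNA helicase of germ cells. The members are the genes of the deposited MVH immunoprecipitation (IP) table and the deposited round spermatid table, both in FPKM (fragments scaled to transcript length and to the number mapped) and both starting at 5 FPKM. The MVH IP table named 8056 genes and the other table named 4956, together 9157 of the 27147 features that the series' gene tables name. Of the 9157 genes, 3855 (42.1%) were listed in both tables, 4201 (45.9%) for MVH IP only and 1101 (12.0%) for round spermatids only. The shared genes were 47.9% of the MVH IP table and 77.8% of the round spermatid table. Each shared gene was given the log2 ratio of its MVH IP value over its round spermatid value, minus the median log2 ratio of all 3855 shared genes. This value is called the centred ratio, and genes lying 2-fold or more above or below that median were called higher or lower.

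The study made 14 libraries from adult C57BL/6 testis, from mice at least 6 weeks old, along a purification of the chromatoid body. There were 3 MVH IP libraries, taken from crosslinked, sonicated and pelleted testis cells, and 2 libraries of round spermatids sorted from adult testes, of which 1 was made from RNA above 500 bp. Also used were 1 library each of testis lysate, the first pellet of the purification (pellet1), the second pellet (pellet2), and round spermatids labelled as from heterozygous MIWI mice. Per the labels' protocols the antibody was added to pellet2 material, while the sample-type labels describe IP from lysate. Each group has 1 deposited value per gene, whatever its number of libraries, so no value below has an SD, an n or a test, and every difference is given as a size only. The IP came from all testis cells and the comparison sample from 1 sorted cell type. In such bulk RNA, fewer cells of a type and less RNA per cell cannot be told apart. The control IPs with IgG and with an ACR antibody were not analysed here.

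The chromatoid body is a perinuclear granule of RNA and protein that forms in spermatocytes and becomes a single large body in round spermatids. It holds MVH, the piRNA-binding protein MIWI (encoded by Piwil1), Tudor-domain scaffold proteins and factors of mRNA decay. Round spermatids are haploid cells that transcribe many genes of the sperm head and tail early and store the mRNAs in repressed form until the chromatin is packed with transition proteins and protamines.

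The tables were scaled apart and their levels differed throughout. The median ratio of the shared genes was 3.78-fold in favour of MVH IP (log2 1.92), and before centring 3616 shared genes lay above equality and 239 below it. The median listed gene stood at 30.3 FPKM in MVH IP and at 17.95 FPKM in round spermatids. Relative to the median ratio, 810 genes (21.0%) were higher in MVH IP and 850 (22.0%) were lower, and the quartiles of the centred ratios were -0.87 and 0.85. Without centring the counts were 2940 (76.3%) and 26 (0.674%), so the balance of higher and lower genes is set by the centring. The MVH IP libraries were also quantified by the authors in a joint table with lysate and the pellets. Of 6962 genes at 5 FPKM or more in both MVH IP tables, 1940 (27.9%) were 2-fold or more apart after the median shift and 569 (8.17%) were 4-fold or more apart. The joint-table MVH IP value is therefore given beside most of the genes described. With it in place of the separate value, 471 of 793 higher genes and 461 of 807 lower genes kept their call, while 33 and 6 were called in the opposite direction.

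**Figure D1:**
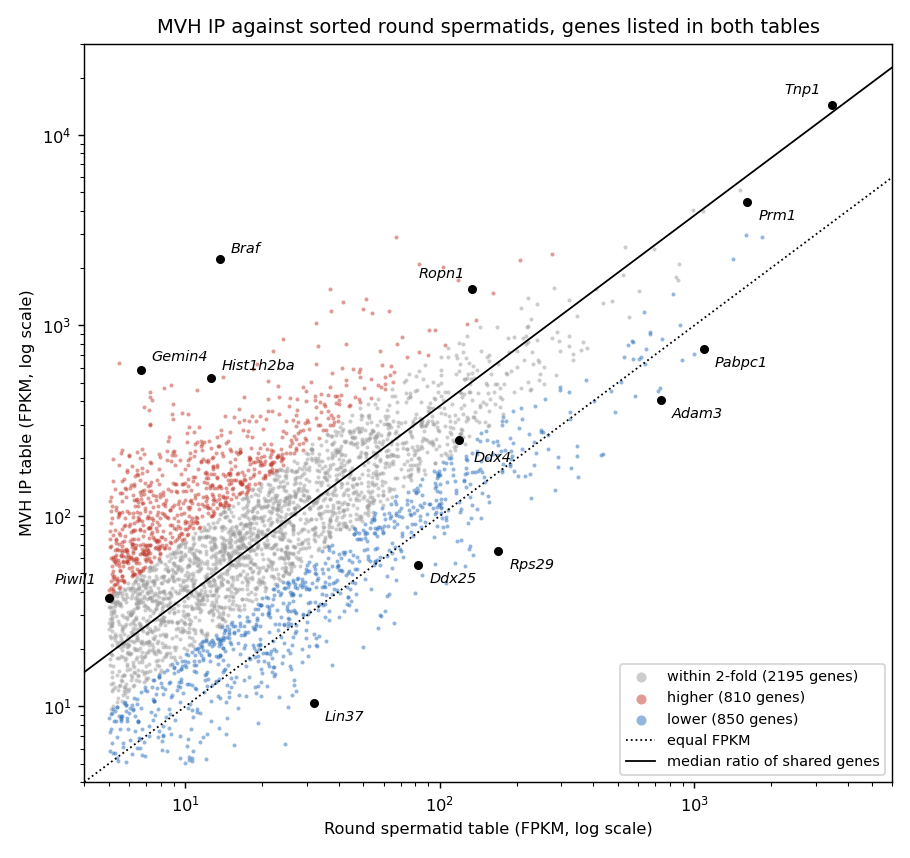
FPKM of each shared gene in the MVH IP table (y axis, log scale) and the round spermatid table (x axis, log scale). The solid line marks the median ratio of 3.78, the dotted line equal FPKM, and red and blue points the 810 higher and 850 lower genes; most points lie above the dotted line.

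The marker genes of the labelled cells were checked in both tables. The round spermatid markers Acrv1, Spaca1, Tssk1 and Tssk2 were listed in both, with Acrv1, an acrosomal matrix protein, at 81.5 FPKM in round spermatids and 456 in MVH IP. Zbtb16 and Kit of spermatogonia, Sox9 of Sertoli cells, Myh11 of peritubular cells and Hbb-b1 and Ptprc of blood were in neither table. In the joint-table MVH IP column, however, Zbtb16 was at 10.9 FPKM and Kit at 20.3, against 1.44 and 4.97 in lysate. Sox9, Myh11, Hbb-b1 and Ptprc were under 5 FPKM in that column. Clu and Wt1 of Sertoli cells, Cyp17a1, Star and Insl3 of Leydig cells, Gfra1 of spermatogonia and Acta2 of peritubular cells were listed for MVH IP and not for round spermatids. Gfra1 was at 6.39 FPKM in the separate MVH IP table and at 0 in the joint-table MVH IP column. The spermatocyte markers Sycp1 and Spo11 were listed in both tables and Sycp3 for round spermatids only, with 66.1 FPKM in the joint-table MVH IP column.

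Ddx4 itself (chr13:113388541-113442518, mm9) was at 249.9 FPKM in MVH IP against 119 in round spermatids, with a joint-table MVH IP value of 280.3. Its centred ratio was -0.85, within 2-fold of the median gene. Piwil1 (chr5:129242121-129261349) was at 36.9 FPKM in MVH IP, 36.8 in the joint table and 5.01 in round spermatids, which is just above the floor, and at 7.79 in heterozygous MIWI round spermatids. Its centred ratio of 0.96 was just short of the 2-fold call. It passed with the joint-table value (1.43), after quantile normalization (2.20) and among genes whose MVH IP tables lay within 2-fold (1.05). It stayed under the call with a pseudocount of 1 FPKM (0.80), with the heterozygous spermatids (0.67) and with the joint-table and heterozygous values together (0.95). The same held among genes with 1 RefSeq transcript (0.93) and transcripts of 1000 bases or more (0.99).

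The genes with the highest centred ratios that also passed 2-fold with the joint-table value were a mixed group. Gemin4 (chr11:76024073-76031074), a component of the SMN complex that assembles spliceosomal ribonucleoproteins, was at 579.7 FPKM in MVH IP, 90.9 in the joint table, 6.68 in round spermatids and 6.59 in heterozygous MIWI round spermatids. Its centred ratio was 4.52, and 2.32 with the joint-table value. Cdc42ep3 (chr17:79733365-79754431), an effector of the GTPase Cdc42, was at 361 FPKM in MVH IP, 379 in the joint table, 7.18 in round spermatids and 12.2 in the heterozygous cells, a centred ratio of 3.73. Both MVH IP values of Cdc42ep3 were far above both spermatid values. Hist1h2ba (chr13:24025642-24026025), the testis H2B histone TH2B, was at 532 FPKM in MVH IP, 862 in the joint table and 12.6 in round spermatids, a centred ratio of 3.48.

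The other genes of this group included uncharacterised testis transcripts and a cluster on chromosome 5. The uncharacterised 4930449I24Rik (chr5:147313975-147316759) was at 488 FPKM in MVH IP, 2013 in the joint table and 8.78 in round spermatids, and its joint-table centred ratio of 6.40 was above the 3.88 of the separate tables. Gm9758 (chr5:14910124-14914889) was at 2895 FPKM in MVH IP, 1805 in the joint table, 67.0 in round spermatids and 58.9 in heterozygous MIWI round spermatids. Gm6460 (chr5:11594956-11599480) was at 457 FPKM in MVH IP, 782 in the joint table and 11.1 in round spermatids. Gm9758 and Gm6460 lie in a stretch of chromosome 5 with many similar gene copies, among which reads may not have been told apart. The remaining genes of the group lie elsewhere. Gm904 (chr13:50738597-50741207) was at 304 FPKM in MVH IP, 406 in the joint table and 7.26 in round spermatids. Srgn, the proteoglycan serglycin of secretory granules, was at 299.8 FPKM in MVH IP, 92.3 in the joint table and 7.24 in round spermatids. Srgn and the next gene had a joint-table value well under the separate one. Cyb5d2, a heme-binding protein, was at 345 FPKM in MVH IP, 57.8 in the joint table and 8.83 in round spermatids. Gstm1, a glutathione transferase, was at 214 FPKM in MVH IP, 134 in the joint table and 5.56 in round spermatids. All 10 genes of the group had a joint-table MVH IP value above their round spermatid value, which the rule that picked them required. Of the 10, 4 were listed for heterozygous MIWI round spermatids.

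Some still higher ratios rested on the separate table alone. Braf, a kinase of the MAP kinase cascade, was at 2243 FPKM in MVH IP against 13.6 in round spermatids, the highest centred ratio of all at 5.45, but at 29.2 in the joint table, where its centred ratio was -0.34. Orc1, a subunit of the replication origin recognition complex, was at 631 FPKM in MVH IP, 29.3 in the joint table and 5.49 in round spermatids. Its centred ratio was 4.93, and 0.97 with the joint-table value.

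The genes with the lowest centred ratios that also passed 2-fold with the joint-table value were a mixed group as well. The lowest ratio of all, -3.87, was that of 4930504O13Rik, which did not pass with the joint-table value (-0.98). It was at 6.36 FPKM in MVH IP, 33.9 in the joint table and 24.6 in round spermatids. Rps29 (chr12:70258709-70260173), a small-subunit ribosomal protein, was at 65.6 FPKM in MVH IP, 96.0 in the joint table and 169.5 in round spermatids, a centred ratio of -3.29. Rps24 (chr14:25309903-25315368), of the same subunit, was at 54.6, 96.3 and 125 FPKM in that order, a centred ratio of -3.12. Zmynd15 (chr11:70273124-70279701), a testis repressor needed for late spermatid development, was at 27.4 FPKM in MVH IP, 19.4 in the joint table, 65.8 in round spermatids and 50.2 in heterozygous MIWI round spermatids. All 4 values of Zmynd15 gave the same order, with MVH IP below the spermatids.

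Ints10 (chr8:71317853-71351543), of the Integrator complex that processes small nuclear RNAs, was at 20.6 FPKM in MVH IP, 30.8 in the joint table and 49.9 in round spermatids. Ube2f (chr1:93146896-93182602), a conjugating enzyme for the ubiquitin-like NEDD8, was at 8.16, 15.5 and 19.2 FPKM. Leng8 (chr7:4088658-4099775) was at 11.4, 9.40 and 26.3 FPKM. All 3 were lower in both MVH IP tables than in round spermatids. Klhdc2, a substrate receptor of a cullin ubiquitin ligase, was at 5.27, 7.03 and 12.1 FPKM, and the uncharacterised 1810012P15Rik and 4930544G11Rik had centred ratios of -3.22 and -3.16. Lin37 (chr7:31340460-31344665), of the MuvB complex that represses cell cycle genes, was at 10.4 FPKM in MVH IP against 32.0 in round spermatids. Its joint-table MVH IP value was 38.5, so Lin37 alone among the 10 lowest genes that passed with both values was above its round spermatid level there. The other 9 were below their round spermatid level with either MVH IP value, without any centring.

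**Figure D2:**
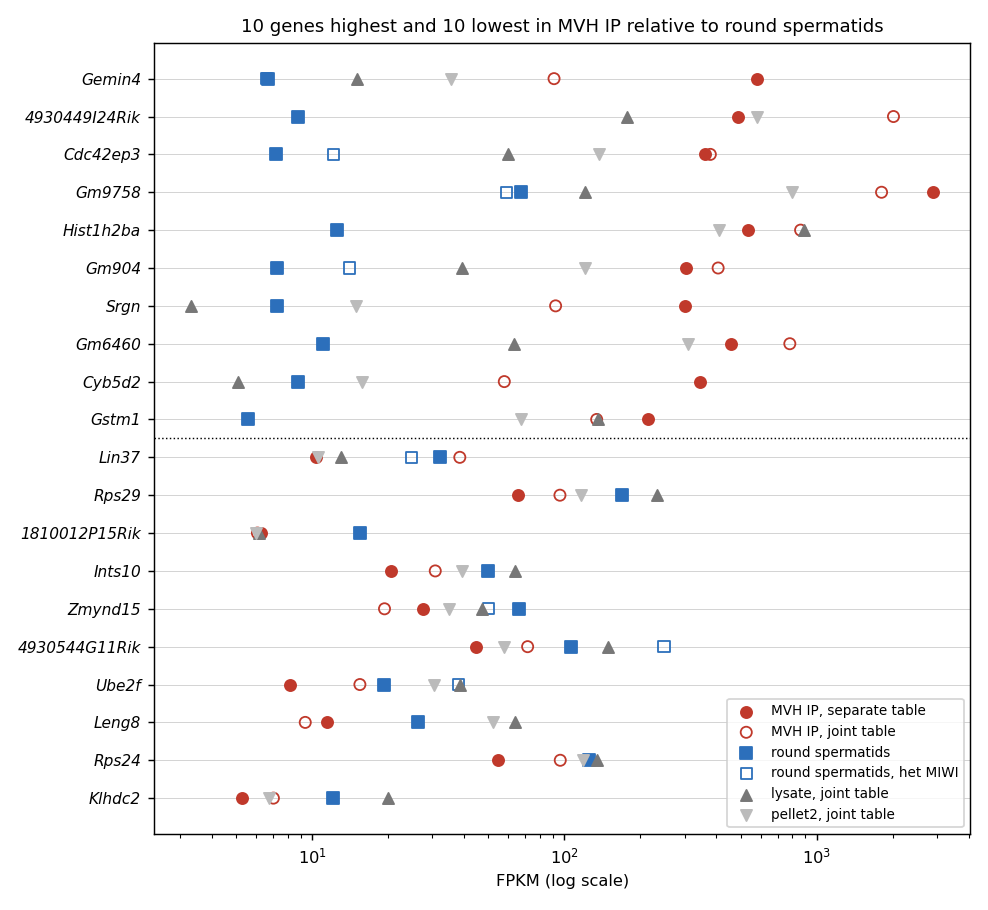
FPKM (x axis, log scale) of the 10 genes with the highest and the 10 with the lowest centred ratios, in the MVH IP tables (red circles), the round spermatid tables (blue squares), and the lysate and pellet2 columns of the joint table (grey triangles). Only genes past 2-fold in the same direction with both MVH IP values were eligible. For the 10 upper genes both MVH IP values lie to the right of every spermatid value, which the selection required for the round spermatid table. For the lower 10 the filled red circles lie to the left of the blue squares.

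Sperm packaging mRNAs were among the most abundant transcripts of both tables. Tnp1, transition protein 1, led both, at 14304.4 FPKM in MVH IP against 3459 in round spermatids. In MVH IP it was followed by Ip6k1, Prm1, Tnp2 and Prm2, and in round spermatids by Ldhc, Prm1, Spata6 and Ip6k1. Prm1, protamine 1, was at 4442 FPKM in MVH IP against 1614 in round spermatids, but at 8200.5 in the joint table. The 5 highest genes held 4.64% of the summed FPKM in MVH IP, against 4.59% in round spermatids. Of the 6 shared protamine and transition protein genes 0 were higher and 0 lower, with centred ratios from -0.46 for Prm3 to 0.38 for the linker histone gene H1fnt. Their list median was 0.03, and it ranged up to 1.16 over the centred alternatives. With the joint-table MVH IP values the median was 0.79, and H1fnt, with a centred ratio of 1.02, was past 2-fold.

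Some of those abundant genes were high in the separate tables alone. Ip6k1, an inositol hexakisphosphate kinase, was at 5146 FPKM in MVH IP against 1508 in round spermatids, yet at 93.0 in the joint table and 22.1 in heterozygous MIWI round spermatids. Spata6, required for the sperm head-tail connection, was at 2988 FPKM in MVH IP against 1593 in round spermatids, against 371 in the joint table and 209 in the heterozygous cells. For both genes the pair of pooled tables stood together and apart from the other tables.

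Of 34 gene lists 26 had at least 5 shared members, and their counts are to be read against the 21.0% higher and 22.0% lower of all shared genes. Among the genes encoding chromatoid body proteins, 17 were shared, of which 2 were higher and 4 lower (median 0.10) against 0 for all shared genes. Smg6, the endonuclease of nonsense-mediated decay, was at 183 FPKM in MVH IP, 132 in the joint table and 15.6 in round spermatids. Mov10l1, a helicase that acts early in piRNA processing, was at 77.9 FPKM in MVH IP, 30.7 in the joint table and 7.47 in round spermatids, but its joint-table centred ratio of 0.59 was under the call. The lower members were Ddx25, Pabpc1, Mael and Spag6. Ddx25, the spermatid helicase GRTH that exports and stores mRNAs, was at 54.9 FPKM in MVH IP, 60.5 in the joint table, 82.2 in round spermatids and 152 in heterozygous MIWI round spermatids. Pabpc1, a cytoplasmic poly(A)-binding protein, was at 751 FPKM in MVH IP, 348 in the joint table and 1091 in round spermatids. Mael, which acts in transposon silencing, was at 276 FPKM in MVH IP, 329 in the joint table and 249 in round spermatids.

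The Tudor and kinase members of that list lay within 2-fold of the median gene. Tdrd7 was at 878 FPKM in MVH IP, 261 in the joint table and 217 in round spermatids, and Tdrd9 at 52.5, 49.6 and 7.68. Tssk1 and Tssk2, spermatid serine kinases, had centred ratios of 0.15 and -0.54, and their substrate Tsks 0.32. Of the 27 listed members of that list, 8 were listed for MVH IP only and 2 for round spermatids only, against 45.9% and 12.0% of all genes. The 8 were all between 11.2 and 40.2 FPKM, among them Piwil2 (MILI) at 40.2, Tdrkh at 29.4 and the decay helicase Upf1 at 28.6. Hspa2 and Hnrnpk were listed for round spermatids only, at 257 and 136 FPKM, although the joint table gives 335 and 96.7 FPKM for MVH IP. Of the 14 listed piRNA biogenesis genes, 8 were shared with 1 higher (Mov10l1) and 1 lower (Mael), 6 were in the MVH IP table only and 0 in the round spermatid table only, where all 9157 genes gave 45.9% and 12.0%.

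Nonsense-mediated decay and exon junction genes split in both directions, with 3 of 11 higher, 3 lower and a median of 0.57. Casc3, of the exon junction core, was at 120 FPKM in MVH IP, 47.9 in the joint table and 6.37 in round spermatids. Upf2, which bridges the junction complex to Upf1, was at 166 FPKM in MVH IP, 159 in the joint table and 9.64 in round spermatids. Upf3a, the paralogue of the junction-binding Upf3b, was on the other side at 215 FPKM in MVH IP, 333 in the joint table and 239 in round spermatids. The list median was 0.28 with the joint-table MVH IP values and -0.81 at the floor of 10 FPKM, which leaves out Casc3 and Upf2, and -0.12 among genes whose MVH IP tables lay within 2-fold.

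Genes of spermatid mRNA storage and poly(A) control had more lower than higher members, with 7 of 14 lower, 2 higher and a median of -0.95. Ybx1, a cold-shock-domain protein that packs mRNA, was at 179 FPKM in MVH IP, 204 in the joint table and 327 in round spermatids, a centred ratio of -2.78. Csda, of the same family, was at 424, 506 and 582 FPKM in that order. Ybx2, the germ-cell member MSY2, was at 686, 613 and 617 FPKM. All 3 had near-equal or higher levels in the spermatids, where the median gene was 3.78-fold lower. Pabpc2 and Pabpc6, poly(A)-binding retrogenes, had centred ratios of -2.35 and -1.47. The higher members were Cpeb4, which directs cytoplasmic polyadenylation, at 226 FPKM in MVH IP, 121 in the joint table and 18.1 in round spermatids, and Paip2b, an inhibitor of poly(A)-binding protein, at 279, 158 and 28.2. The list median was -1.94 at its lowest and 0.01 at its highest over the centred alternatives.

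Histone variant genes had a median above that of all shared genes. Of 6 shared testis histone variant genes 2 were higher and 0 lower (median 0.73), and the median stayed between 0.65 and 1.39 over the centred alternatives. Besides Hist1h2ba these were H2afb1, an H2A variant gene, at 356 FPKM in MVH IP, 462 in the joint table and 36.4 in round spermatids. Of the 13 listed variant genes, 7 were listed for MVH IP only and 0 for round spermatids only, against 45.9% and 12.0% of all genes. Among the 7 were the testis linker histone Hist1h1t at 58.5 FPKM and Hist1h2aa at 92.8. Of the 40 listed genes of the replication-dependent histone clusters, 36 were in the MVH IP table only, 4 in both and 0 in the round spermatid table only, against 45.9%, 42.1% and 12.0% of all genes. The 2 histone lists overlap, since Hist1h2ba, Hist1h2aa and Hist2h2aa1 are in both. The median of those 36 genes was 14.6 FPKM, a level at which a gene at the median ratio of 3.78 is under the spermatid floor. These are short transcripts of near-identical genes, so reads may be shared between copies, and RNA above 500 bp was selected for 1 of the pooled spermatid libraries. The part of either in the difference was not tested.

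Of 22 shared acrosome and egg-binding genes 5 were higher and 6 lower. Their median, 0.03, ran from -0.62 to 0.60 over the centred alternatives. Spaca5, an acrosomal lysozyme-like protein encoded on the X chromosome, was at 70.8 FPKM in MVH IP, 74.9 in the joint table and 6.24 in round spermatids. Pcsk4, a protease of the acrosome, was at 57.4, 35.5 and 5.81 FPKM, and Izumo1, the sperm protein that binds the egg receptor, at 158, 144 and 20.5. Adam3, needed for sperm migration and zona binding, was at 406 FPKM in MVH IP, 157 in the joint table and 741 in round spermatids, a centred ratio of -2.79. Acr, the acrosin gene, was at 209, 275 and 111 FPKM, just inside the 2-fold limit with a centred ratio of -0.999, and at -0.13 with the joint-table value.

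Of 37 shared flagellum and fibrous sheath genes 1 was higher and 10 were lower, with a median of -0.75 and a range of medians from -0.96 to -0.21 over the centred alternatives. Ropn1, a fibrous sheath protein that binds A-kinase anchors, was the exception at 1554 FPKM in MVH IP, 1193 in the joint table, 134 in round spermatids and 168 in heterozygous MIWI round spermatids. The low end held axonemal genes. Dnaic2, a dynein intermediate chain, was at 23.0 FPKM in MVH IP, 25.04 in the joint table, 32.5 in round spermatids and 48.7 in the heterozygous cells. Spag17, of the central pair apparatus, was at 87.2, 57.5, 103 and 64.1 FPKM in the same order. Rsph9 of the radial spoke and the tektin Tekt3 had centred ratios of -1.73 and -1.39. Ldhc, the sperm lactate dehydrogenase, was at 2901 FPKM in MVH IP, 2536 in the joint table and 1838 in round spermatids, a centred ratio of -1.26. The abundant outer dense fibre gene Odf1 lay at 0.36 and the calcium channel genes Catsper3 and Catsper4 at 0.91 and 0.59. With the joint-table values Odf1 (1.09) and Catsper3 (1.22) were past 2-fold.

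Among 14 transcription regulators of spermatids 1 was higher and 4 lower (median 0.03). Taf7l, a testis paralogue of a TFIID subunit, was at 138 FPKM in MVH IP, 99.9 in the joint table and 15.2 in round spermatids. The lower genes were Rfx2, a ciliogenesis factor, at 34.3, 51.1 and 35.4 FPKM, together with Tbpl1 (TRF2), Sox5 and Gtf2a1l (ALF), whose centred ratios were -1.70, -1.65 and -1.49. Crem, the activator of many spermatid genes, was listed for round spermatids only, at 254 FPKM, with 209.6 in the joint-table MVH IP column.

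Meiotic genes were found on both sides, 3 of 11 higher and 3 lower (median 0.25). Sycp1, the transverse filament protein of the synaptonemal complex, was at 92.2 FPKM in MVH IP, 40.2 in the joint table, 5.11 in round spermatids and 10.3 in the heterozygous cells. Spo11, which makes the double-strand breaks of recombination, was at 84.9, 34.7, 9.22 and 17.8 FPKM. Its centred ratio was 0.47 with the joint-table MVH IP value, under the call, and -0.32 with the joint MVH IP and heterozygous spermatid values together. Rec8, a meiotic cohesin, was at 149.6 FPKM in MVH IP, 105 in the joint table and 19.5 in round spermatids. Ccna1, a cyclin of the meiotic divisions, was at 46.9, 58.3 and 50.6 FPKM in that order, and Syce1, of the central element, at 146, 163 and 131. Of the 24 listed meiotic genes 8 were in the MVH IP table only and 5 in the round spermatid table only. All 9157 genes gave 45.9% and 12.0%. Among the 8 were Hormad1 at 64.6 FPKM, Tex12 at 30.1 and Prdm9 at 18.4.

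The ribosomal protein, initiation factor, proteasome and heat shock lists had more lower than higher members. Of 56 shared cytosolic ribosomal protein genes 2 were higher and 28 lower (median -0.997). The higher ones were Rpl24, at 63.0 FPKM in MVH IP, 25.9 in the joint table and 6.85 in round spermatids, and Rps9, at 377, 186 and 44.0. With the joint-table values their centred ratios were 0.47 and 0.64, both under the call. Of 30 translation initiation factor genes 4 were higher and 12 lower (median -0.62). The subunits Eif3h and Eif3e of the initiation factor eIF3 were at 37.9 and 22.1 FPKM in MVH IP, 34.0 and 44.1 in the joint table and 62.0 and 35.6 in round spermatids. Against them stood Eif2b2, a subunit of the exchange factor eIF2B, at 139 FPKM in MVH IP, 26.9 in the joint table and 5.84 in round spermatids, and Eif1a, at 194, 131 and 12.1. The joint-table centred ratio of Eif2b2, 0.76, was under the call.

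Among 26 proteasome genes 2 were higher and 8 lower (median -0.60), with Psmc3, an ATPase of the regulatory particle, at 658 FPKM in MVH IP, 253 in the joint table and 893 in round spermatids. Psma8, the alpha subunit of the testis proteasome, was among the higher ones at 86.3, 57.2 and 10.7 FPKM, but its joint-table centred ratio of 0.97 was just under the call. Among 24 heat shock genes 2 were higher and 8 lower (median -0.58). Hsp90aa1, the inducible HSP90, was at 626, 414 and 637 FPKM, while Hsph1, of the HSP110 class, was at 105, 106 and 7.24. The medians of the 4 lists named in this and the preceding paragraph stayed below 0 in every centred alternative, the highest being -0.21 for the proteasome. Without centring all 26 list medians were above 0, the lowest being 0.92 for the ribosomal proteins.

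Splicing factor and zinc finger lists had more higher than lower members. Of 46 shared splicing factor genes 15 were higher and 6 lower. Their median, 0.17, ran from -0.29 to 0.62 over the centred alternatives. Hnrnph1, a splicing regulator, was at 1217 FPKM in MVH IP, 604 in the joint table, 49.9 in round spermatids and 45.8 in the heterozygous cells. Srsf4, an SR protein, was at 139.6, 130.1 and 5.79 FPKM in MVH IP, the joint table and round spermatids. Of 53 shared Zfp genes, which encode DNA-binding zinc finger proteins, 20 were higher and 9 lower (median 0.61). Zfp87 was at 212 FPKM in MVH IP, 227 in the joint table and 6.84 in round spermatids. With the joint-table MVH IP values the Zfp median was 0.07, and at the floor of 10 FPKM it was 0.11. Of 188 Zfp genes listed at all, 122 were listed for MVH IP only and 13 for round spermatids only, where all genes gave 45.9% and 12.0%. The median level of those 122 was 15.1 FPKM, at which a gene at the median ratio is under the spermatid floor. Of 53 RING-finger and F-box genes, which encode ubiquitin ligase parts, 14 were higher and 10 lower. Klhl11, a cullin adaptor, was at 247 FPKM in MVH IP, 283 in the joint table and 11.5 in round spermatids. Tssk3, a spermatid kinase, was at 511, 598 and 21.1 FPKM, and Tex24, a testis gene, at 593, 473 and 18.4.

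**Figure D3:**
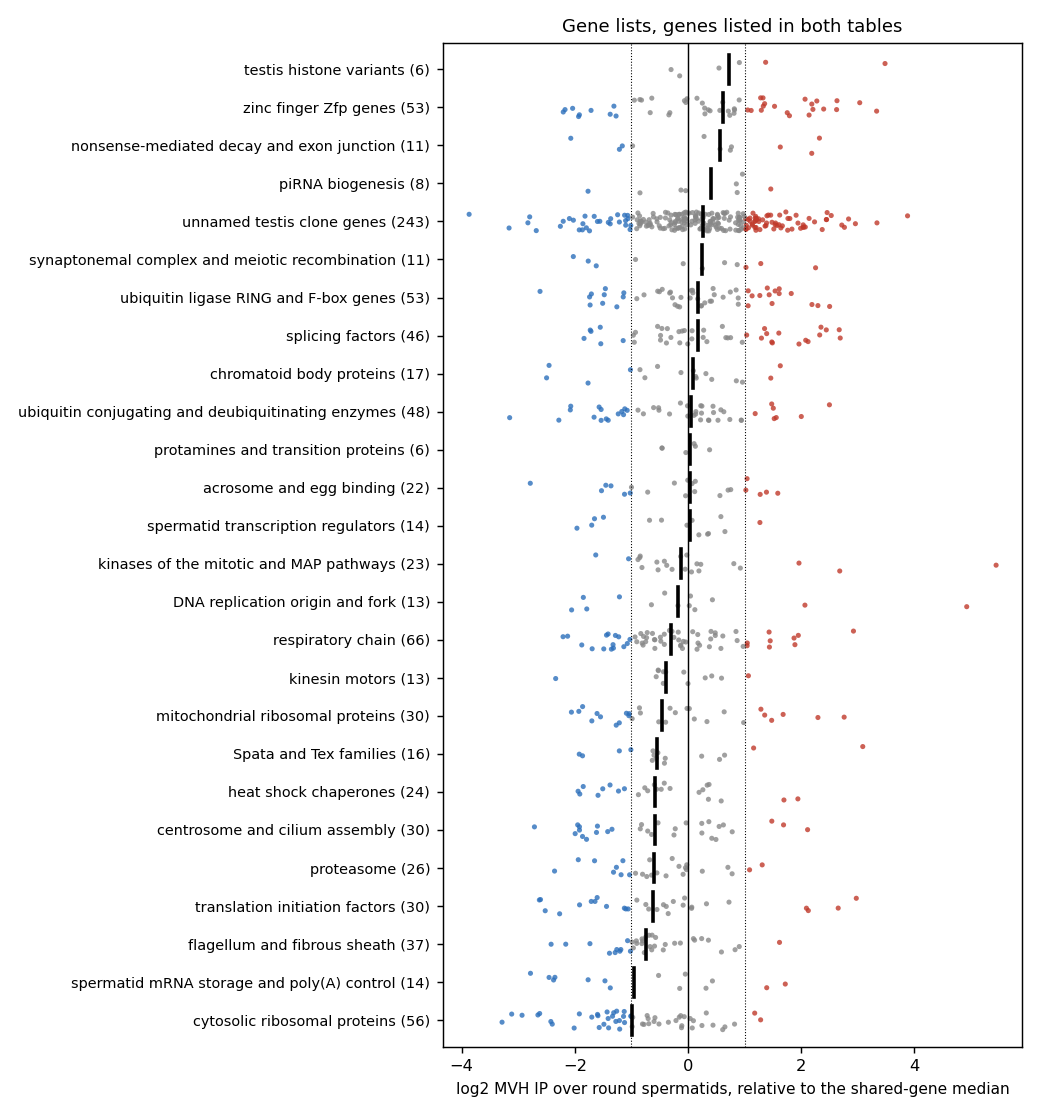
Centred log2 ratio (x axis) of every shared member of the 26 gene lists with at least 5 shared genes; each point is a gene, black bars are list medians, dotted lines mark 2-fold, and the number of shared genes is in brackets. The medians run from -0.997 for cytosolic ribosomal proteins to 0.73 for testis histone variants, and members of nearly every list lie on both sides of 0.

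The order of genes between MVH IP and round spermatids was then looked up in the pellets of the purification, whose libraries entered neither table. For 3770 shared genes at 1 FPKM or more in pellet1 and lysate, 49.2% had a higher value in pellet1 than in lysate. Of the genes higher in MVH IP than in round spermatids, 677 of 795 (85.2%) were above lysate in pellet1, with a median log2 ratio of 0.99. Of the genes lower in MVH IP, 57 of 824 (6.92%) were above lysate, with a median of -0.79. Genes within 2-fold had a median of 0.03. In pellet2, against 48.1% of all shared genes, 644 of 795 higher genes (81.0%) and 105 of 826 lower genes (12.7%) were above lysate. The rank correlation across genes between the centred ratio and the pellet1 over lysate ratio was 0.71 (3770 genes), and 0.60 for pellet2 (3767 genes). This is a description across genes, which are not replicates, and each pellet and the lysate are 1 library. Genes higher and lower in MVH IP thus also differed in their pellet over lysate ratios. Per the protocols pellet2 material went into the IP, so the 2 comparisons are not independent. What sets this order was not tested.

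Single genes show it. Cdc42ep3 went from 59.9 FPKM in lysate to 147 in pellet1, 137 in pellet2 and 379 in the IP, all in the joint table. Klhl11 was at 31.9, 119 and 78.9 FPKM in lysate, pellet1 and pellet2 and at 283 in MVH IP, and Tex24 at 46.6, 231 and 189.8 and at 473. Of the 10 highest genes that passed 2-fold with both MVH IP values, 8 were above lysate in both pellets. The 2 that were not are Hist1h2ba, at 888 FPKM in lysate, 348 in pellet1 and 408 in pellet2, and Gstm1, at 136, 49.9 and 67.1. All 10 of the lowest genes picked in the same way were below lysate in both pellets. Klhdc2, for example, was at 19.9 FPKM in lysate, 3.97 in pellet1 and 6.78 in pellet2.

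The gene lists mostly followed the same order. Ribosomal protein genes had a median log2 ratio of pellet1 over lysate of -0.996, mRNA storage genes of -0.80, heat shock genes of -0.68 and flagellum genes of -0.41, whereas Zfp genes stood at 0.53 and RING and F-box genes at 0.33. In 7 of the 26 lists the 2 medians had opposite signs. Testis histone variants had a median centred ratio of 0.73 but a pellet1 over lysate ratio of -0.43, piRNA genes 0.41 and -0.41, and meiotic genes 0.25 and -0.45. The other 4 were the splicing factors at 0.17 and -0.17, the chromatoid body proteins at 0.10 and -0.40, the ubiquitin conjugating and deubiquitinating enzymes at 0.05 and -0.10, and the protamines and transition proteins at 0.03 and -0.30. Several of these centred medians changed sign under an alternative, the meiotic one to -0.33 at the floor of 10 FPKM. Piwil1, for example, was at 106 FPKM in lysate, 55.7 in pellet1 and 65.4 in pellet2.

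**Figure D4:**
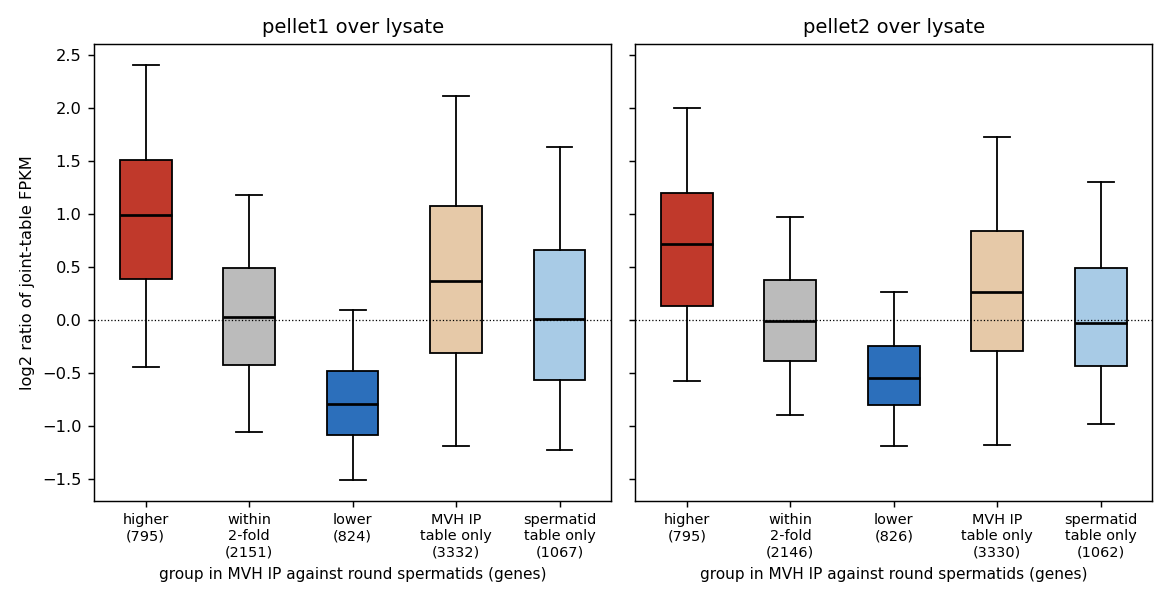
Log2 ratio of joint-table FPKM (y axis) of pellet1 (left) and pellet2 (right) over lysate, for genes grouped by the comparison of MVH IP with round spermatids. Boxes are quartiles over genes with the median as a line, whiskers reach the 5 and 95 percentiles, and gene numbers are in brackets; the medians in pellet1 are 0.99, 0.03 and -0.79 for higher, within 2-fold and lower genes.

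The order was the opposite in the heterozygous MIWI round spermatids, a library that entered neither table. Their median log2 ratio over lysate in the separate tables was 0.41 for the higher genes (305 genes), 0.72 for genes within 2-fold (1075) and 1.05 for the lower genes (432). The genes higher in MVH IP thus had the lowest of the 3 medians in this other spermatid library. Round spermatid values are the denominator of the centred ratio, so another round spermatid library tends to this order through the grouping itself. The order is therefore no independent check. Only genes listed in both of these separate tables entered, 305 of the 810 higher genes.

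Genes listed for MVH IP only were mostly of low level, with a median of 14.3 FPKM. The shared genes stood at a median ratio of 3.78-fold in favour of MVH IP. A gene at that ratio and at the group's median level would lie under the 5 FPKM floor in round spermatids. Listing for MVH IP only is therefore not by itself a relative difference, and the part of the floor in the group was not tested. Of the 4135 with a joint-table value, 3219 (77.8%) reached 5 FPKM in the joint-table MVH IP column. The separate lysate values covered 564 of the 4201 (13.4%), against 84.1% of the shared genes, and the heterozygous spermatid values 309 (7.36%), against 51.2%. On the X chromosome lay 214 of them (5.09%), compared with 2.46% of shared genes and 2.72% of round spermatid-only genes. Most genes of this group were thus below 5 FPKM or unlisted in the other separate tables as well.

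The highest genes of that group were not alike in the 2 MVH IP tables. AI314831, an uncharacterised gene (chr2:104916695-104966667), was at 1350 FPKM in the separate table and 4.02 in the joint table. Zfp618 was at 339 and 11.9 FPKM, and Fos, the immediate-early transcription factor, at 299.7 and 0.222. By contrast 4933421I07Rik (chr7:49700832-49703450), an uncharacterised testis gene, was at 282 and 368 FPKM, against 30.2 in lysate. Zc3h18, a nuclear RNA-binding protein, was at 271 and 66.6 FPKM, and Dus2l, a tRNA dihydrouridine synthase, at 254 and 28.8. Only 4933421I07Rik of these 6 had similar values in both.

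Most listed genes of spermatogonia and of Sertoli, Leydig, peritubular, vascular and blood cells fell in this group. Of all 9157 genes, 45.9% were listed for MVH IP only and 12.0% for round spermatids only. Of 25 spermatogonia genes known to the joint table, 6 were listed in a separate table, all for MVH IP only, at 6.39 to 19.8 FPKM, the highest being Taf4b. The same held for 6 of 27 genes of peritubular, vascular and blood cells, led by the collagen gene Col1a1 at 48.9 FPKM. Of 28 Sertoli cell genes 11 were listed, 9 of them in the MVH IP table only, 1 in both (Tjp1, a tight junction protein) and 1 in the round spermatid table only (Trf, transferrin). Etd was at 136 FPKM in MVH IP, 218 in the joint table and 13.2 in lysate, and Clu, the secreted chaperone clusterin, at 96.9, 101 and 29.96. Of 17 Leydig cell genes 14 were listed, 11 of them in the MVH IP table only, with Cyp17a1, an enzyme of androgen synthesis, at 51.0 FPKM. In the joint table the 3 Leydig cell markers were lower in MVH IP than in lysate, Cyp17a1 at 84.5 against 139.5 FPKM, Insl3 at 39.6 against 78.1 and Star at 6.76 against 11.6. Summed over each list, Sertoli genes came to 541 FPKM in MVH IP against 30.7 in round spermatids, and Leydig genes to 261 and 21.8. These sums are not centred, and a gene under the 5 FPKM floor adds nothing to them. Markers of cells other than round spermatids were thus listed in the MVH IP table, and the part of such cells in the other differences was not tested.

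Genes listed for round spermatids only were a different case. Of the 1085 with a joint-table value, 1027 (94.7%) had a joint-table MVH IP value of at least 5 FPKM, with a median of 47.7 FPKM against 53.7 for the shared genes. Their absence from the separate MVH IP table is therefore not a low MVH IP level in the joint table. Odf2, of the outer dense fibres (chr2:29745240-29778058), was at 1115 FPKM in round spermatids against 826 in the joint MVH IP column. Tcp1, a chaperonin subunit, was at 875 and 483 FPKM, Hk1, the hexokinase that has a sperm form, at 648 and 360, and Gsg1, a germ cell gene, at 415 and 1433. Gm3448 was at 561 and 1048 FPKM. Ccdc77 was the exception among the 6 highest, at 879 FPKM in round spermatids, 19.5 in the joint MVH IP column and 16.6 in lysate.

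These genes shared a feature of the annotation. In RefSeq 78.1% of them had 2 or more transcripts (median 3), compared with 43.4% of shared genes and 39.3% of MVH IP-only genes (median 1 in each). Of the 45 listed flagellum genes 8 were in the group, where the share of all listed genes was 12.0%, among them Akap4, the main fibrous sheath protein, at 220.2 FPKM in round spermatids and 552 in the joint MVH IP column. Of the 37 listed heat shock genes 11 were in it, and 10 of those 11 reached 5 FPKM in the joint MVH IP column. Only 58 genes of the group were under 5 FPKM in the joint MVH IP column, with a median of 8.12 FPKM in round spermatids. The highest of these in round spermatids were Phyhd1, of the dioxygenase family, at 118 FPKM against 0 in the joint MVH IP column, the motor Myo7a at 31.3 against 2.64, and Ddx49, a helicase, at 30.6 against 3.32.

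**Figure D5:**
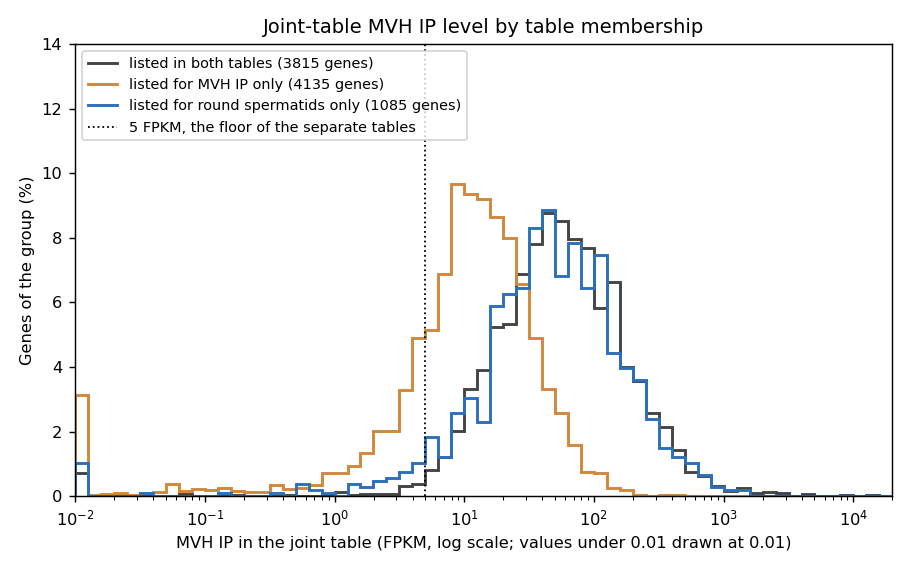
Share of genes (y axis, %) by joint-table MVH IP level (x axis, FPKM, log scale) for genes listed in both separate tables, for MVH IP only and for round spermatids only. The round spermatid-only genes (blue) have a median of 47.7 FPKM and overlie the shared genes (grey), far to the right of the 5 FPKM line.

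Promoters were searched for the letters TGACGTCA, the full cAMP response element bound by CREM and related factors, because CREM drives many spermatid genes. The windows ran from 250 bases before to 50 after each gene's start (RefSeq, GRCm38.p6), and 3136 of the 3855 shared genes matched a window. The 8 letters read the same on both strands. Among the genes higher in MVH IP 41 of 669 windows (6.13%) held them, among genes within 2-fold 84 of 1775 (4.73%) and among the lower genes 16 of 692 (2.31%). The share in all shared genes with a window, among which the calls were made, was 4.50% (141 of 3136). It was 3.21% in genes listed for MVH IP only, 3.64% in those listed for round spermatids only and 2.03% in all genes with a promoter window. The shared genes with the letters had a median centred ratio of 0.30 (141 genes) and those without of -0.02 (2995 genes), and with the joint-table MVH IP values the medians were 0.24 and -0.02. A match is a description of letters and not a binding site. The following windows are shown because they carry the letters in genes past 2-fold with both MVH IP tables, first 5 higher and then 3 lower genes, in lower case with the match in capitals and written 5′ to 3′ on the gene's strand:
Znrd1: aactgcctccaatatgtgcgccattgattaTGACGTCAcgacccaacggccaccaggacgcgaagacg
Ywhah: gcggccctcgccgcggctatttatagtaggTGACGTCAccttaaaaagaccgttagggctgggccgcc
Clk4: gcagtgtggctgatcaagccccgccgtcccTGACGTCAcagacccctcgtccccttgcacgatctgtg
Zfp367: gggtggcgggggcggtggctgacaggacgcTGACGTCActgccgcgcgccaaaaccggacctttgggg
Bdp1: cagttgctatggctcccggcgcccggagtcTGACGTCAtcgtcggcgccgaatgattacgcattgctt
Abhd16a: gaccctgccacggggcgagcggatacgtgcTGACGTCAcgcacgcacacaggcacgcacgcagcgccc
Gpbp1: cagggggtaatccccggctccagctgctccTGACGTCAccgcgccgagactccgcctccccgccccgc
Ap2b1: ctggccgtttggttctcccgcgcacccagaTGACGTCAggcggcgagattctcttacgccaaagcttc

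The windows of the 5 higher genes lie at chr17:36958563-36958630 (minus strand) for Znrd1, chr5:33018690-33018757 (plus) for Ywhah, chr11:51263019-51263086 (plus) for Clk4, chr13:64152441-64152508 (minus) for Zfp367 and chr13:100104083-100104150 (minus) for Bdp1, all upstream of the gene start in GRCm38.p6. Clk4, a kinase of splicing factors, was at 1186 FPKM in MVH IP, 539 in the joint table and 63.1 in round spermatids. Znrd1, a subunit of RNA polymerase I, was at 412, 295 and 21.0 FPKM. Ywhah, a 14-3-3 protein, was at 129.8, 75.2 and 6.88 FPKM. The motif began 75 bases before the start in Znrd1, 96 in Ywhah, 65 in Clk4, 105 in Zfp367 and 50 in Bdp1.

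The 3 lower genes carry the same letters at chr17:35089194-35089261 (plus) for Abhd16a, chr13:111490217-111490284 (minus) for Gpbp1 and chr11:83302620-83302687 (plus) for Ap2b1, beginning 67, 127 and 47 bases before the start. Abhd16a, a lipase, was at 29.4 FPKM in MVH IP, 5.69 in the joint table and 40.1 in round spermatids. Gpbp1, a GC-rich promoter binding protein, was at 114, 95.8 and 99.02 FPKM. The letters are thus present in genes on both sides of the comparison.

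Length, base composition and chromosome were nearly unrelated to the centred ratio across genes. The rank correlation was -0.02 with transcript length and -0.06 with GC content (3817 genes each). The 432 genes with transcripts under 1000 bases had a median of 0.14, and the 3385 longer ones of -0.03. Chromosome medians ran from -0.29 on chromosome 17 to 0.23 on chromosome 4, with -0.07 for the 95 genes of the X chromosome. By level, the lowest quintile of shared genes had a median of -0.51, the 3 middle quintiles of 0.30, 0.29 and 0.24, and the highest quintile of -0.21. The floor of 5 FPKM in both tables limits which ratios a low gene can have, so the value of the lowest quintile is in part set by the tables.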

How the data were processed

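TopHat, Cuffdiff and the mm9 genome build are named by the submitters' processing notes. Their versions, read filters and read counts, and whether counting used strand, are not given in these sources, so sequencing depth is unknown and a gene cannot be separated from an overlapping or antisense gene. The values are FPKM, as deposited by the authors and per the file headers, in separate gene tables for MVH IP, round spermatids, lysate and heterozygous MIWI round spermatids, and in a joint Cuffdiff table of which lysate, pellet1, pellet2 and MVH IP were used. The labels list 1 table for all libraries of a group, so libraries could not be separated and the design's limma test, which assumed 1 column per library, was replaced by its stated fallback with no test. A further column of small RNA values (1) was not used.

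The highest value was kept for a symbol with several rows (2 symbols in MVH IP, 4 in round spermatids). No pseudocount was added to either FPKM value, since both tables start at 5. Centred ratios are differences from the median log2 ratio of the 3855 shared genes, with calls at 2-fold. Pellet ratios use genes at 1 FPKM or more in both columns. Transcript lengths and GC content come from GENCODE M21, transcript numbers and promoter windows from RefSeq (GRCm38.p6), matched by symbol. Gene coordinates are mm9, counted from 1. The script recovered known folds in a self-test. Python 3.11.15, numpy 2.4.6 and pandas 2.3.3 were used.

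The members and the gene lists were chosen with earlier results of these data known, so counts and medians of lists are descriptions. Named by rule were Ddx4 and Piwil1, the 10 highest and 10 lowest centred ratios whose joint-table MVH IP value gave the same direction past 2-fold, the 6 highest genes listed in each table only, the 2 highest and 2 lowest of each list (or the highest levels where fewer than 5 were shared) and the 5 highest FPKM of each table, small RNA genes left out. Other genes named are members of these lists, printed promoters, genes of the round spermatid table under 5 FPKM in the joint MVH IP column, and marker genes, and were chosen after their values were seen. Alternatives were a pseudocount of 1, a floor of 10 FPKM, other handling of repeated symbols, no centring, quantile normalization, the joint-table MVH IP values, the heterozygous MIWI round spermatids, small RNA genes left out and a 4-fold call. Added after seeing the data were the joint MVH IP and heterozygous values together, restrictions to genes whose MVH IP tables lay within 2-fold, to genes with 1 RefSeq transcript and to transcripts of 1000 bases or more, and, for the pellets, a floor of 5 FPKM.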

Additional observations from a re-analysis of the deposited data

How the results depend on the processing

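No paired analysis was possible because each group has 1 deposited value per gene and no column per library; for the same reason leaving out a replicate and the limma test were not run. Every difference is without a replicate check, and depth is unknown. The shared genes numbered 2284 with the heterozygous MIWI round spermatids and 2170 among genes with 1 RefSeq transcript, since fewer genes could enter. Higher and lower genes numbered 2940 and 26 without centring, 220 and 200 at the 4-fold call, and 446 and 483 among genes with 1 RefSeq transcript. Higher genes alone numbered 521 of 2749 shared genes at the floor of 10 FPKM and 507 of 2599 among genes whose MVH IP tables lay within 2-fold. In the main comparison they numbered 810 of 3855, so fewer genes could enter in these settings too. Genes listed for MVH IP only numbered 2751 at 10 FPKM or more. For the remaining settings both counts were within 1.5 times of 810 and 850.

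With the heterozygous MIWI round spermatids 268 of 351 higher genes and 342 of 455 lower genes kept their call, and with both other tables together 258 of 351 and 349 of 445. Without centring only 239 shared genes were below 0, so most of the 850 lower genes had a higher value in MVH IP, by construction of the centring. Among the genes named by rule and called lower, those above 0 without centring were Bub1b (0.87), Hspa4 (0.0047), Ldhc (0.66), Mael (0.15), Map2k2 (0.29), Ncbp1 (0.71), Polb (0.067), Prpf6 (0.19), Rnf126 (0.18), Snrpc (0.080), Spata1 (0.053), Spata6 (0.91), Spesp1 (0.39), Syce1 (0.15) and Tbpl1 (0.22). The signs given next are those of genes named by rule and called higher or lower. With the joint-table MVH IP values the sign of the centred ratio turned for Atp5j2 (0.56), Braf (-0.34), Eif2ak2 (-0.12), Kif5c (-2.03), Snrpc (0.90) and Ube2g2 (-0.040). It turned with the heterozygous spermatids for Spata6 (2.27), and with both other tables together for Rpl24 (-0.80) and Spo11 (-0.32). The cause was not tested. Pseudocount, quantile normalization, repeated symbols and small RNA genes moved none of the 26 list medians by 0.5 or more, whereas the joint-table MVH IP values moved 10 of 26 and the heterozygous spermatids 8 of 24. The pellet1 over lysate medians stayed between 0.65 and 1.01 for higher genes and between -0.82 and -0.55 for lower genes over their alternatives.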
